A study of Rattus norvegicus with 16 samples.

Results

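The expression data described here are the input RNA of rat aortic smooth muscle cells with and without knockdown of Nat10, read through the 11725 protein-coding genes with a mean of at least 1 FPKM over 6 libraries. The unit is FPKM, the fragments of a gene per kilobase of its length, scaled to the size of the library. These genes were chosen by biotype and level alone, out of 22250 protein-coding genes and 32883 genes of any kind in the authors' table. The 6 libraries are 3 control and 3 knockdown libraries of the 16 samples in the series, which asked what NAT10 does for the proliferation and migration of these cells. All 6 came from primary aortic vascular smooth muscle cells of the rat, grown in DMEM/F12 with 20% fetal bovine serum and exposed to an adenovirus for 48 h. The control cells, of the labelled genotype wild type, received Adenovirus-control, and the knockdown cells received Adenovirus-shRNA-NAT10, so a virus was present in both groups and no library is free of it. Neither the promoter driving the hairpin nor the number of animals is stated in the labels. The labels call the libraries biological repeats without saying that they came from separate animals or cultures. Every p-value below therefore sets a difference against the spread of these samples only, and that spread may be technical.

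NAT10 is an acetyltransferase that places N4-acetylcytidine (ac4C) on ribosomal, transfer and messenger RNA, and it also works in the nucleolus during ribosome production. Smooth muscle cells of the artery wall carry a contractile apparatus of actin, myosin and their regulators and secrete the collagens that give the wall its strength. In culture and after injury they can lose contractile genes and take up growth and matrix programmes, a change known as phenotypic switching.

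The 6 libraries held 6417941 to 12065991 fragments, and protein-coding genes took 94.6% to 97.6% of them. These fragments are the smallest whole numbers recovered from the FPKM values, so the true depths may be higher. That share was lower in every knockdown library (96.2%, 94.6% and 96.5%) than in any control (97.6%, 97.5% and 97.6%), with an exact two-sided permutation p of 0.1, the smallest that 3 against 3 allows. No other pair was as alike as control libraries 2 and 3. Over genes with at least 20 fragments summed over a pair, their chi-square per degree of freedom was 6.04, against 31.0 to 135 for the other 14 pairs, so they differed beyond counting error and were kept as separate samples. The first principal component of the 11725 genes held 47.5% of the variance and set knockdown library 2 far out, at 61.7, and control library 1 at 9.49. Knockdown library 3, at -22.3, lay close to the last pair of controls, at -26.5 and -25.9. The median standard deviation within a group, on the log2(FPKM + 1) scale, was 0.176 among controls and 0.353 among knockdown libraries, and 78.0% of the genes varied more among the knockdown libraries.

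The labelled cell type was checked against marker genes. All 10 smooth muscle markers were listed and 9 reached a mean of 1 FPKM. Their summed level was 5210 to 6850 FPKM in the controls and 875 to 3840 FPKM in the knockdown libraries. Endothelial markers summed to 1.76 to 4.87 FPKM and 0.821 to 2.82 FPKM, with 7 of 8 listed and Cldn5 at 0 in every library. Leukocyte markers summed to 8.85 to 12.3 FPKM and 10.3 to 19.4 FPKM, with Cd3e at 0 throughout. Schwann cell markers summed to 1.18 to 4.69 FPKM and 0.813 to 2.90 FPKM, and adipocyte and mesothelial markers to 5.09 to 7.07 FPKM and 6.09 to 7.77 FPKM. The 7 fibroblast markers, all above a mean of 1 FPKM, summed to 297 to 319 FPKM in the controls and 194 to 266 FPKM after knockdown. Several of them, such as Lum and Dcn, are also made by smooth muscle cells in culture. In bulk RNA, fewer cells of a type and less of an RNA in each cell cannot be told apart.

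Nat10 RNA, which the hairpin targets, was below every control in each of the knockdown libraries. Its level was 7.69, 9.22 and 9.95 FPKM in control libraries 1 to 3 and 4.38, 3.68 and 4.58 FPKM in knockdown libraries 1 to 3. Here and below, values are given in the order of libraries 1 to 3, controls first. The groups did not overlap. On the log2(FPKM + 1) scale, used for all changes here, Nat10 was 0.93 lower (log2 change -0.93, SE 0.19; limma p 0.00159 unadjusted and 0.227 adjusted). Leaving out any 1 library kept the unadjusted limma p at or under 0.0129. Weighting libraries by quality brought the adjusted limma p to 0.0399, while 15 other alternatives gave 0.108 to 0.797.

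No protein-coding gene passed the adjusted threshold of 0.05 in limma, which is 0.0% of the 11725. The lowest adjusted p was 0.155, shared by 9 genes, and 46 genes were under 0.2. At an unadjusted p under 0.05 limma held 564 higher genes (4.81%) and 858 lower genes (7.32%). Voom on the recovered fragments also called 0 genes, while limma with library quality weights called 302. The 3 control and 3 knockdown values did not overlap for 1074 genes that were higher after knockdown (9.16%) and 1388 that were lower (11.8%). Scaling every library to its protein-coding total shifted the median over the 11725 genes from a log2 change of -0.03 to 0.10, and with it the split of genes without overlap to 1507 higher and 884 lower, and that at an unadjusted limma p under 0.05 to 832 and 527.

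To separate differences that hang on 1 library from those that do not, the fit was repeated without each library in turn. A gene is called supported here where its groups did not overlap and its unadjusted limma p stayed under 0.05, with the same sign, in the fit of all 6 libraries and in all 6 fits that left 1 out. This describes the libraries at hand, and no error rate is claimed for it. By that rule 148 genes were supported higher (1.26%) and 298 supported lower (2.54%). Scaled to the protein-coding total, the split was 208 higher and 174 lower, and 169 of those 174 were among the 298. The adjusted limma p of the supported genes, as deposited, ran from 0.155 to 0.327. The median log2 change was 0.79 among supported higher genes and -0.94 among supported lower ones, against -0.03 over all 11725. A change of at least 1 on the log2 scale was held by 28 of the 148 supported higher and 119 of the 298 supported lower genes.

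By its rule support depends partly on the size of a difference, so large ones held it more often than the 1.26% and 2.54% over all genes. Many large differences still lacked it. Of 93 genes at least 1 log2 unit higher after knockdown, 28 were supported and the groups overlapped for 47. Of 277 genes at least 1 log2 unit lower, 119 were supported and the groups overlapped for 101. The plot of change against level shows both kinds side by side at every level.

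**Figure D1:**
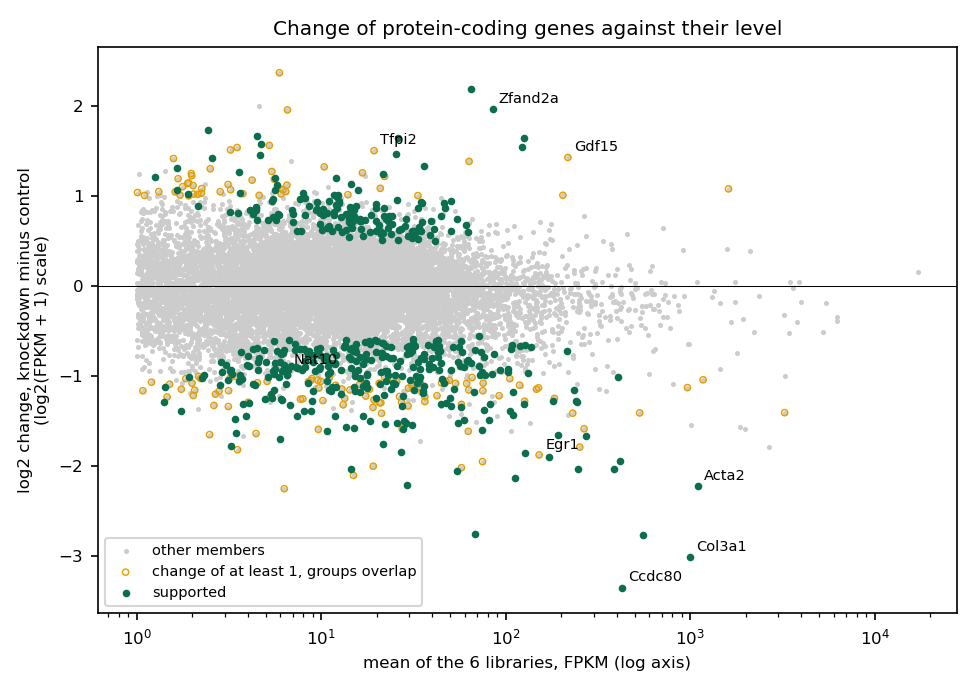
Log2 change after Nat10 knockdown (log2(FPKM + 1) scale) against the mean of the 6 libraries in FPKM on a log axis, 1 point per protein-coding gene. Supported genes are filled green (148 higher, 298 lower), and genes with a change of at least 1 whose groups overlap are open orange circles (47 higher, 101 lower); the lowest points are the supported genes Ccdc80 and Col3a1.

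The supported genes with the largest differences were mostly matrix and muscle genes on the lower side. Ccdc80, a secreted matrix protein, had control values of 774, 728.5 and 731.9 FPKM and knockdown values of 50.2, 29.98 and 247 FPKM (log2 change -3.35). Col3a1, the chain of type III collagen, stood at 1653, 1696 and 1768 FPKM and at 196.9, 81.9 and 575.4 FPKM (log2 change -3.01). Knockdown library 3 was the nearest to the controls for both, and the groups were far apart. Eid1, an inhibitor of histone acetylation by EP300, stood at 45.1, 46.6 and 53.9 FPKM and at 8.50, 7.19 and 14.7 FPKM. Plod2, the enzyme that hydroxylates lysines in collagen telopeptides, stood at 414.1, 385.3 and 377.7 FPKM and at 84.9, 61.3 and 164.5 FPKM. The limma adjusted p was 0.155 for Eid1 and 0.193 for Plod2.

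On the higher side the supported genes with the largest differences were of mixed kinds, with genes of the stress response and protein folding among them. Zfand2a, a stress-induced factor of the proteasome, had control values of 31.5, 29.0 and 32.2 FPKM and knockdown values of 171.6, 58.3 and 186.7 FPKM. Hsph1, a large chaperone that exchanges nucleotide on HSP70, stood at 52.8, 54.3 and 63.5 FPKM and at 202.8, 85.6 and 273 FPKM. For Zfand2a and Hsph1 knockdown library 2 was the nearest to the controls, and the groups did not overlap. Without that library Zfand2a was the 1 gene past the threshold, with an adjusted limma p of 0.027.

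The other supported higher genes with large differences ranged from a receptor to enzymes. Ednrb, the endothelin B receptor, gave 2.18, 1.80 and 2.06 FPKM with the control virus and 7.88, 5.71 and 8.36 FPKM with the hairpin. Tiparp, an ADP-ribosyltransferase induced by the aryl hydrocarbon receptor, stood at 13.4, 11.5 and 12.4 FPKM and at 33.4, 56.2 and 25.1 FPKM. Ctdp1, the phosphatase of the RNA polymerase II tail, stood at 12.2, 10.1 and 11.9 FPKM and at 55.8, 43.4 and 22.2 FPKM. In all 3 the groups were apart, with knockdown library 3 the nearest to the controls for Tiparp and Ctdp1. Kcnab1, a potassium channel subunit, had means of 1.59 ± 0.391 and 7.88 ± 5.69 FPKM (SD, n = 3 each), and Aspg, an asparaginase, 1.32 ± 0.530 and 7.60 ± 6.01 FPKM. Slc10a4, a vesicular transporter, and Bpifb1, a secreted protein of epithelia, rest on few recovered fragments. These were 2 to 19 and 7 to 22 in the controls against 32 to 54 and 45 to 67 after knockdown. With control means of 0.606 and 0.937 FPKM, both genes passed the filter only through the knockdown libraries, where they are high.

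**Figure D2:**
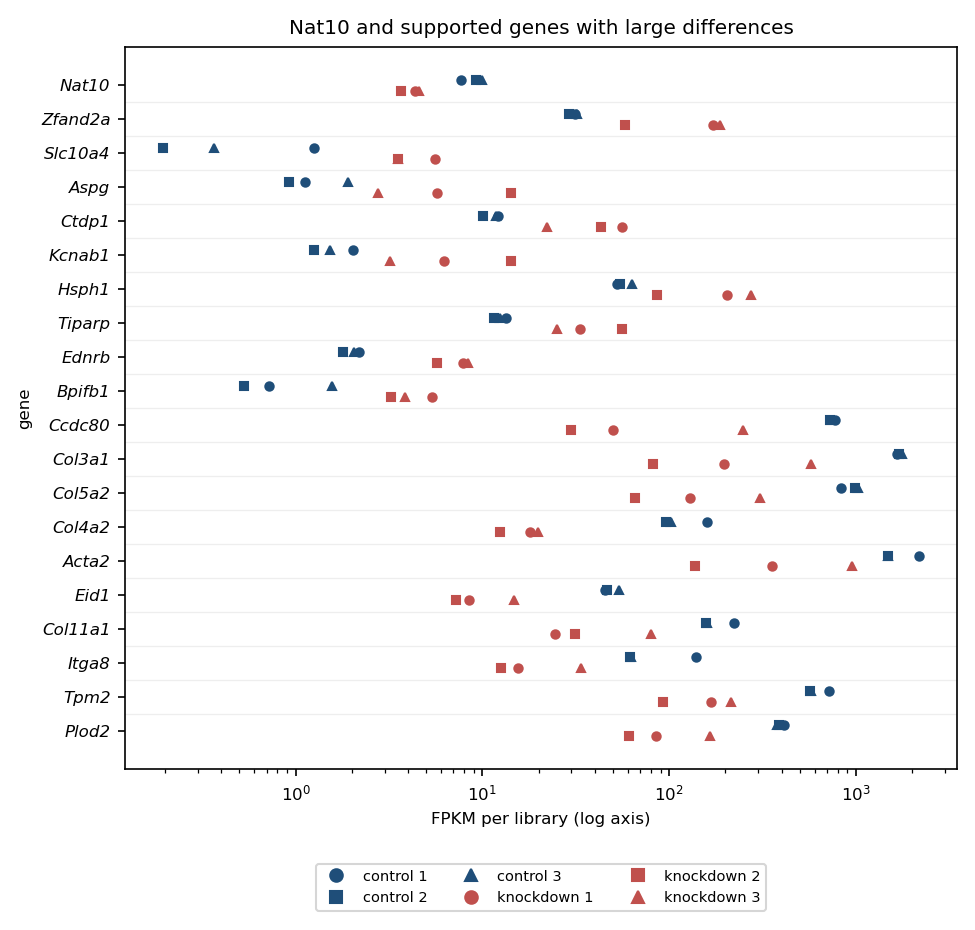
FPKM in each library (log axis) for Nat10 and supported genes with large differences in each direction; blue symbols are the 3 control and red symbols the 3 knockdown libraries, with the symbol shape giving the library number. No gene shown has overlapping groups, and for the lower genes knockdown library 3 is in each case the red point nearest to the blue ones.

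The contractile apparatus held the highest share of supported genes of the 50 gene lists examined. All 27 of its measured genes had a negative log2 change, 20 did not overlap, 19 had an unadjusted limma p under 0.05, and 11 (40.7%) were supported lower, with none higher. The shares of lower genes over all 11725 were 11.8%, 7.32% and 2.54%. The median log2 change was -1.01, against -0.03 over all genes, and it ran from -0.61 to -1.29 over the fits without 1 or 2 libraries. Earlier results on these libraries were known when the list was drawn up, so its direction is not independent evidence. The summed smooth muscle markers given above share genes with this list, among them Acta2, Tagln, Myh11 and Tpm2, so they are no separate readout. The summed fibroblast markers were lower to a smaller extent, while Lum, the highest of them, had means of 124 FPKM in the controls and 122 FPKM after knockdown. That sum includes Col14a1, which is also among the collagen chains described below. The part of cell composition in the result was not tested.

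Thin filament genes led this list. Acta2, smooth muscle alpha-actin, read 2176, 1479 and 1486 FPKM across the controls and 355.7, 138.0 and 956.6 FPKM after knockdown (log2 change -2.22). Tpm2, beta-tropomyosin, stood at 715.5, 565.6 and 572.3 FPKM and at 167.4, 92.5 and 213.9 FPKM (-2.03). Nexn, an actin filament protein of the Z-disc, stood at 50.7, 37.1 and 41.9 FPKM and at 16.0, 11.8 and 15.6 FPKM (-1.51). The 3 knockdown values of Nexn lay within a narrow range, while those of Acta2 spread widely, and no value of these genes crossed to the other group. Lmod1, a nucleator of actin filaments in smooth muscle, stood at 40.5, 29.4 and 30.2 FPKM and at 7.98, 5.96 and 15.4 FPKM. Tpm1, alpha-tropomyosin, had a log2 change of -1.66.

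Genes of the myosin motor and its control were also supported, but their controls differed among themselves. Myh11, the smooth muscle myosin heavy chain, had control values of 47.5, 12.1 and 12.7 FPKM and knockdown values of 5.43, 6.28 and 6.06 FPKM. Mylk, the kinase that phosphorylates myosin light chain, stood at 57.7, 28.7 and 30.5 FPKM and at 10.9, 10.6 and 16.0 FPKM. Control library 1 was the highest for both genes, and control libraries 2 and 3 stayed above all knockdown values. Ppp1r14a, an inhibitor of myosin phosphatase, had a log2 change of -1.04, and Smtn, a cytoskeletal protein of contractile cells, of -0.67.

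The remaining 16 genes of the list lacked support. Tagln, an actin cross-linker and among the most abundant RNAs, stood at 3207, 2526 and 2740 FPKM and at 828.3, 447.7 and 2219 FPKM, with the groups apart but an adjusted limma p of 0.362. Flna, the actin cross-linker filamin A, stood at 582.5, 756.2 and 769.9 FPKM and at 330.4, 80.5 and 674.6 FPKM, so knockdown library 3 lay above control library 1. Cnn1, calponin, stood at 136.6, 52.5 and 60.9 FPKM and at 59.8, 33.1 and 46.1 FPKM, again with overlap. Synpo2 had a log2 change of -0.16 with an SE of 0.65.

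Promoter letters were read for the genes whose symbol or Ensembl identifier matched the RefSeq table of assembly GRCr8, 8804 of 11725, over 250 bases before to 50 after the gene's start. The letters CATTCC, the core read by TEAD factors, were searched on both strands, so they may read GGAATG. They lay in 966 of all 8804 promoters, in 12 of 106 supported higher (11.3%), in 42 of 228 supported lower (18.4%) and in 8 of 22 contractile promoters (36.4%). Over all 33469 RefSeq promoters of the same length the share was 14.2%. A further 3 motifs were searched in the same way. A CArG box, read by serum response factor, lay in 1.27% of the 8804 promoters, in 1.32% of supported lower and in 0 of 22 contractile ones, which says only that these letters are not in this window. TGANTCA, read by AP-1, lay in 4.58% of all, 7.55% of supported higher and 4.39% of supported lower promoters, and CACGTG, the E-box, in 9.65%, 13.2% and 6.14%. Over all RefSeq promoters of this length the shares were 1.64% for the CArG box, 7.33% for TGANTCA and 6.42% for CACGTG. A match is a description of the sequence and not a site shown to be used.
The windows below come from supported lower genes of the contractile, collagen and integrin lists. Those lists had the highest supported shares of the 50 (40.7%, 40.0% and 21.4%). Shown are the 6 windows whose CATTCC letters lie wholly before the gene's start. Each reads 5′ to 3′ on the gene's strand, with the 6 matching bases in capitals and the distance of those bases from the start in the sentences that follow.
Acta2: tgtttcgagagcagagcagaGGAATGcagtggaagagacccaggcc
Tpm1: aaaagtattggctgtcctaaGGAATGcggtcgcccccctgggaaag
Mylk: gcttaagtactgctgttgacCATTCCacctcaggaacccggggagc
Nexn: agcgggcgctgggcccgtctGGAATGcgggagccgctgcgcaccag
Itgb1: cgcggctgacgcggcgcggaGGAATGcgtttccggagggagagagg
Col4a6: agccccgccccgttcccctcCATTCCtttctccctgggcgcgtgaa
The Acta2 window is chr1:241172674-241172719 on the minus strand, with its letters 196 to 191 bases before the start. Tpm1 (chr8:76543421-76543466, minus) has them 31 to 26 bases before, Mylk (chr11:79498585-79498630, minus) 36 to 31, and Nexn (chr2:243878228-243878273, minus) 101 to 96. Itgb1 (chr19:73602111-73602156, plus) has them 146 to 141 bases before the start, and Col4a6 (chrX:109905955-109906000, minus) 36 to 31. In 4 of the 6 windows the letters read GGAATG, and in Mylk and Col4a6 they read CATTCC.

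Other parts of the cytoskeleton varied in their supported share. Among 27 genes of actin nucleation and branching, 2 were supported lower and 1 higher (11.1% together), beside 2.54% and 1.26% over all genes. Actr2, the ARP2 subunit of the Arp2/3 complex, measured 97.3, 119 and 119 FPKM without and 29.7, 35.2 and 44.8 FPKM with knockdown (log2 change -1.60, adjusted limma p 0.155), and Fmnl3, a formin, stood higher, at 31.0 ± 1.77 and 46.7 ± 6.82 FPKM. None of 17 tubulins and none of 29 kinesins was supported, which in lists this small cannot be set apart from the shares over all genes. Vim, the intermediate filament vimentin, stood at 1759, 2337 and 2377 FPKM and at 1174, 734.1 and 2431 FPKM, with knockdown library 3 above all controls.

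Collagen chains were close behind the contractile genes. All 25 measured chains had a negative log2 change, 12 did not overlap, 14 had an unadjusted limma p under 0.05 and 10 (40.0%) were supported lower, beside 11.8%, 7.32% and 2.54% over all genes. The median log2 change was -0.97, from -0.77 to -1.36 over the fits without 1 or 2 libraries. The 10 supported chains span basement membrane collagens (Col4a1, Col4a2, Col4a5, Col4a6), fibrillar collagens (Col3a1, Col5a1, Col5a2, Col11a1) and fibril-associated collagens (Col14a1, Col16a1).

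Col4a2, a chain of the basement membrane network, had the tightest difference, at 159.8, 96.6 and 101.9 FPKM in the controls and 18.0, 12.5 and 19.9 FPKM after knockdown (log2 change -2.75, SE 0.26, adjusted limma p 0.155). Col5a2, a regulator of fibril diameter, stood at 833.7, 983 and 1017 FPKM and at 129, 65.3 and 306 FPKM. The groups were well apart for both. By contrast Col1a1, the most abundant chain, gave 5874, 6135 and 6235 FPKM with the control virus and 4078, 3005 and 6372 FPKM with the hairpin, with knockdown library 3 the highest of all 6. Col1a2, its partner in type I collagen, stood at 181.2, 175.7 and 219.7 FPKM and at 81.8, 43.4 and 178.2 FPKM, with knockdown library 3 inside the control range. Col18a1, the source of endostatin, stood at 329.7, 119.7 and 121.7 FPKM and at 116.2, 271.8 and 130.6 FPKM, with no separation and a log2 change of -0.07.

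Matrix genes outside the collagens moved less evenly. The shares over all genes were 1.26% supported higher and 2.54% supported lower. Of 37 matrix glycoproteins and proteoglycans 33 had a negative log2 change and the median was -0.37. Thbs2 was the 1 supported gene (2.7%), at 106, 72.7 and 77.9 FPKM and 19.2, 22.5 and 58.1 FPKM. Its relative Thbs1, thrombospondin 1, stood at 2505, 5042 and 4882 FPKM and at 2580.0, 305.3 and 4206 FPKM, overlapping widely. Of 25 genes of collagen processing and crosslinking, Plod2 and Fkbp14 were supported lower, and P4ha3, a prolyl hydroxylase subunit, overlapped at 90.3, 145 and 140 FPKM and 53.2, 55.0 and 103 FPKM. The medians of these lists by library, in the plot of gene lists, place knockdown library 3 at 0.07 for the glycoproteins, within the control range, and at -0.08 for the processing genes, just under it, with knockdown libraries 1 and 2 at -0.29 to -0.83.

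Receptors and the cell surface were split within families. Beside the counts below, 1.26% of all genes were supported higher and 2.54% lower. Of 14 integrin chains 3 were supported lower and none higher, and the list's median log2 change of -0.10 turned to 0.05 when libraries were scaled to the protein-coding total. Itgb1, the common beta chain of collagen and fibronectin receptors, stood at 534.9, 694.2 and 701.4 FPKM and at 160.1, 87.4 and 323.9 FPKM. Itga8, an alpha chain of vascular smooth muscle, stood at 139.6, 61.9 and 62.3 FPKM and at 15.5, 12.6 and 33.7 FPKM, and Itga11, a collagen receptor chain, at 158.6, 184.6 and 176.9 FPKM and 66.4, 38.5 and 130 FPKM. All 3 were apart between the groups, with knockdown library 3 nearest to the controls. Gnai2, an inhibitory G protein subunit, stood at 289, 273 and 251 FPKM and at 51.2, 86.8 and 84.1 FPKM (adjusted limma p 0.155), whereas Gna13, another alpha subunit, stood higher at 17.9, 14.5 and 14.5 FPKM and 23.4, 29.7 and 23.6 FPKM. Of 29 genes of caveolae and clathrin endocytosis, Cav2, Cavin2 and Eps15 were supported lower and Ehd1 higher. Cavin1, which shapes caveolae, overlapped at 135, 226 and 235 FPKM and 88.3, 43.0 and 176 FPKM.

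Secretory pathway lists had medians near 0 and some supported members, beside 1.26% supported higher and 2.54% supported lower over all genes. Copz2, a coatomer subunit, was the 1 supported gene of 34 in the vesicle coats, at 73.8, 85.5 and 84.5 FPKM and 24.1, 22.6 and 38.4 FPKM. Of 40 genes of endoplasmic reticulum translocation and N-glycosylation, Ganab, Sec61b and Ssr3 were supported lower and Alg10, which adds the last glucose to the oligosaccharide precursor, higher, at 12.2, 8.89 and 8.54 FPKM and 22.8, 19.8 and 22.2 FPKM. The list medians were -0.06 and -0.08, and both turned positive when libraries were scaled to the protein-coding total.

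Nuclear transport was the list with the most supported higher genes. Of 50 genes of the nuclear pore and its transport receptors 40 had a positive log2 change, 21 were higher without overlap against 2 lower, and 5 were supported higher with none lower. Over all genes 9.16% were higher and 11.8% lower without overlap, and 1.26% were supported higher. Rangap1, the activator of the RAN GTPase, read 32.5, 32.9 and 36.0 FPKM across the controls and 79.1, 51.3 and 70.0 FPKM after knockdown. Nup43, a scaffold nucleoporin, stood at 7.50, 7.98 and 6.15 FPKM and at 11.6, 13.6 and 14.4 FPKM, and Nup50, a nucleoporin of the basket, at 16.1, 17.5 and 17.2 FPKM and 27.7, 26.5 and 24.2 FPKM. The differences were modest in size but narrow in spread. Nup160 and the importin Kpna1 were the others with support, while the exportin Xpo4 overlapped. The median log2 change of 0.23 ran from 0.21 to 0.32 over the fits without 1 or 2 libraries, and all 3 knockdown libraries had a median above the 3 controls.

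Ribosome biogenesis, a process NAT10 takes part in, leaned the same way, with 1.85% of its genes supported. Over all genes 9.16% were higher and 11.8% lower without overlap, and 1.26% were supported higher and 2.54% lower. Of 54 genes 44 had a positive log2 change and 12 were higher without overlap against 1 lower. Nol6, a factor of small subunit assembly, was the 1 supported gene, at 9.48, 9.07 and 9.08 FPKM and 18.5, 13.2 and 17.8 FPKM. The median of the list was 0.36 and 0.38 above the control mean in knockdown libraries 1 and 3, and -0.09 in knockdown library 2. Rrp12, an export factor of pre-ribosomes, had its overlap in that library, at 8.18, 6.23 and 8.45 FPKM and 20.4, 8.30 and 14.1 FPKM. Among 47 RNA modification enzymes, Nat10 was the 1 supported lower gene. Rbm15 and Zc3h13, both parts of the m6A writer complex, were supported higher, at 13.4, 15.8 and 16.0 against 27.9, 30.6 and 26.9 FPKM, and at 16.4, 17.7 and 17.9 against 27.3, 25.6 and 22.9 FPKM.

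The ribosome itself was not supported in either direction, where 1.26% of all genes were supported higher and 2.54% lower. Of 80 cytosolic ribosomal proteins 72 had a negative log2 change and the median was -0.17, and 0 were supported. The medians by library were -0.65 in knockdown library 1, 0.18 in knockdown library 2 and -0.06 in knockdown library 3, and without knockdown library 1 the median change was 0.07. Rpl11, which also binds the p53 regulator MDM2, had the smallest unadjusted p of the list, at 56.8, 71.7 and 70.7 FPKM and 43.4, 44.9 and 50.3 FPKM. Ribosomal protein genes have many near-identical copies in the genome, so single values are uncertain where the authors' counting could split reads between them. Of 71 mitochondrial ribosomal proteins Mrpl13 was the 1 supported gene, and of 39 translation initiation factors none was. In lists of this size such counts cannot be set apart from the shares over all genes.

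The targets of p53 moved in both directions. Of 26 genes 19 had a positive log2 change, with a median of 0.32. Among the 26, 3 were supported higher and 2 lower, beside 1.26% and 2.54% over all genes. Zmat3, an RNA-binding protein of the p53 response, stood at 36.2, 31.7 and 27.0 FPKM and at 57.8, 67.9 and 57.0 FPKM. Eda2r, a receptor of the tumour necrosis factor family, stood at 12.2, 9.51 and 9.47 FPKM and at 18.3, 25.0 and 15.7 FPKM, and Aen, a nuclease, at 48.7, 35.8 and 36.5 FPKM and 62.8, 87.7 and 56.6 FPKM. On the lower side were Ccng1, cyclin G1, at 73.3, 62.3 and 64.0 FPKM and 38.9, 34.0 and 30.9 FPKM, and Fas, the death receptor, at 20.9, 16.9 and 17.2 FPKM and 9.53, 11.2 and 12.0 FPKM. Cdkn1a, the cell cycle inhibitor p21, stood at 168.5, 110.6 and 107.1 FPKM and at 292.5, 408.5 and 138.1 FPKM, so knockdown library 3 lay below control library 1. Tp53inp1 overlapped in the same way, at 45.6, 25.8 and 23.9 FPKM and 107, 143 and 34.9 FPKM.

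Growth genes showed large shifts between libraries, and none of those listed was supported. In lists of this size that cannot be set apart from the shares over all genes. Of 46 DNA replication genes 37 had a positive log2 change, with a median of 0.34, and 0 were supported. Over all genes 1.26% were supported higher and 2.54% lower. Cdt1, a licensing factor, stood at 3.18, 6.63 and 6.89 FPKM and at 17.0, 13.4 and 7.64 FPKM. The groups of Cdt1 were just apart, and its unadjusted limma p reached 0.0832 in the fits without 1 library. For 46 mitosis genes the median by library was 0.72 above the control mean in knockdown library 1, 0.14 in knockdown library 2 and -0.37 in knockdown library 3, while control library 1 stood at -0.35. Without control library 1 the mitosis median was -0.02, and without that library and knockdown library 2 together the replication median was 0.08. Control library 1 stood below control libraries 2 and 3 for both lists.

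Protein quality control gave supported genes in both directions. Of 47 chaperones Hsph1 was the 1 supported gene (2.13%), and 9 were higher without overlap against 3 lower. Over all genes 1.26% were supported higher and 2.54% lower, and 9.16% were higher and 11.8% lower without overlap. Hsp90aa1, the inducible cytosolic HSP90, stood at 19.8, 12.2 and 17.2 FPKM and at 1.88, 0.932 and 63.8 FPKM, with knockdown library 3 the highest and the other knockdown libraries the lowest. Of 37 proteasome subunits Psmd7, Psma4 and Psma7 were supported lower and none higher, while the list's median was 0.06. Psmd7, a lid subunit, stood at 73.2, 59.6 and 55.9 FPKM and at 24.7, 28.9 and 34.7 FPKM. Among 27 E2 ubiquitin-conjugating enzymes Ube2d1 was supported lower and Ube2o higher.

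The metabolic lists differed in direction. Of 81 nuclear-encoded subunits of the respiratory chain 62 had a negative log2 change; the median of -0.10 turned to 0.04 when libraries were scaled to the protein-coding total. Of its members 3 were supported lower (3.7%) and none higher, beside 2.54% and 1.26% over all genes. Ndufv2, a subunit of complex I, stood at 48.3, 44.3 and 43.6 FPKM and at 19.5, 32.4 and 29.4 FPKM, and Atp5pd, a subunit of the ATP synthase stalk, at 96.0, 80.1 and 81.6 FPKM and 55.2, 56.1 and 62.8 FPKM, each with the groups apart. The 13 mitochondrially encoded proteins had no supported member, which in so few genes cannot be set apart from the supported shares over all genes. None was without overlap, beside 9.16% higher and 11.8% lower without overlap over all genes. Their median stood 1.01 below the control mean in knockdown library 2 and 0.67 above it in knockdown library 3. They took 5.98%, 5.12% and 4.94% of the protein-coding fragments in the controls and 6.01%, 5.02% and 7.70% after knockdown (exact two-sided permutation p = 0.4). Of 23 cholesterol synthesis genes 19 had a positive log2 change with a median of 0.35, and Sc5d, a sterol desaturase, was the 1 supported gene, at 14.1, 11.02 and 10.4 FPKM and 18.8, 23.6 and 19.3 FPKM. Knockdown library 3 stood at -0.09 for this list, among the controls. Aldoc was the 1 supported gene of 22 in glycolysis, on the lower side.

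**Figure D3:**
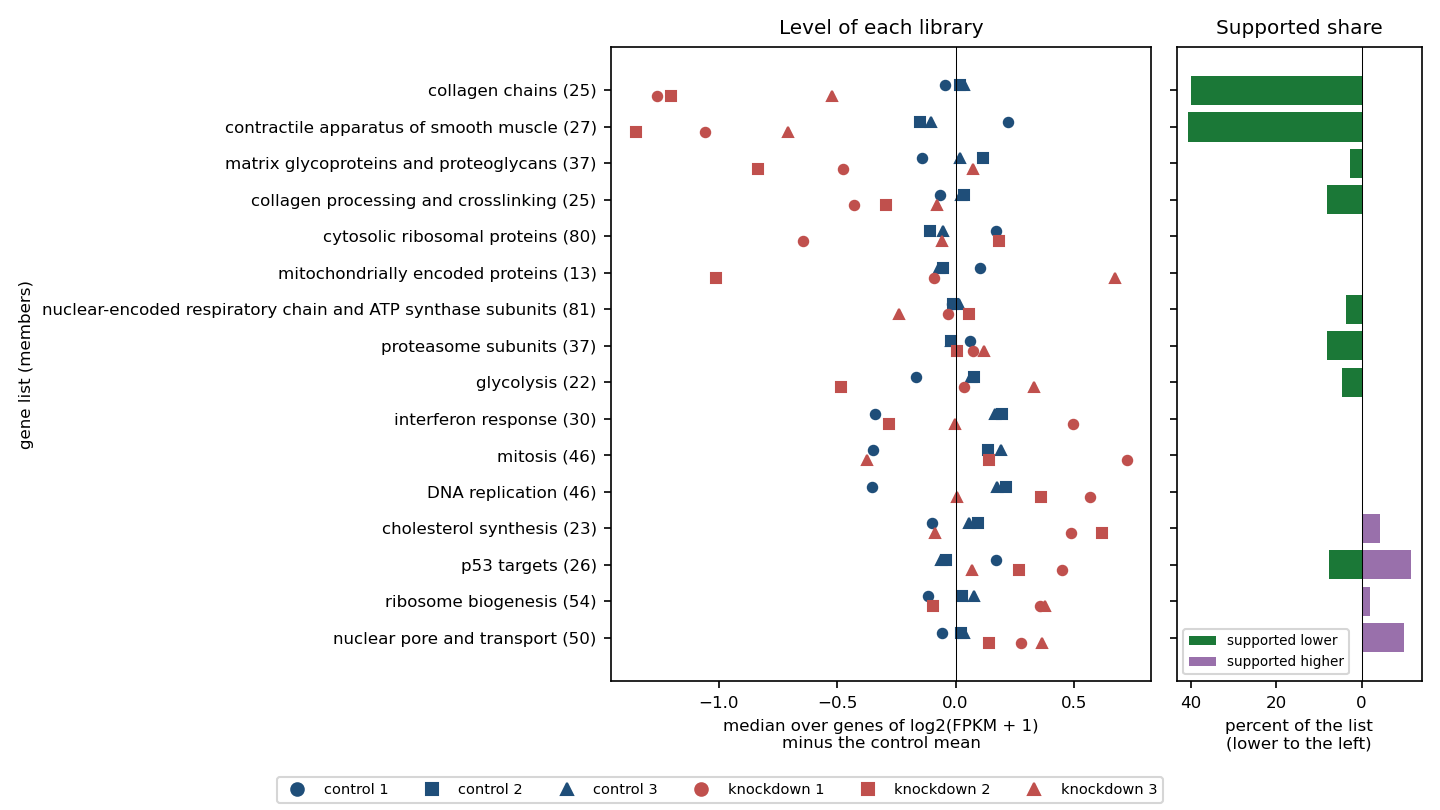
Left, for 16 gene lists, the median over genes of log2(FPKM + 1) minus the control mean in each library (blue controls, red knockdown, symbol shape giving the library number); right, the percent of each list that is supported lower (green, to the left) or higher (purple, to the right). Collagen chains and the contractile apparatus have all 3 knockdown libraries far to the left and the highest supported shares, nuclear pore genes have all 3 to the right, and mitochondrially encoded and mitosis genes have knockdown libraries on both sides of the controls.

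The genes with the largest differences and overlapping groups included signalling ligands and immediate early genes. Egr1, an immediate early transcription factor, had control values of 78.6, 282.1 and 317.7 FPKM and knockdown values of 32.8, 23.5 and 175.5 FPKM (log2 change -1.87, adjusted limma p 0.416). Tgfb3, a TGF-beta ligand, stood at 177.3, 456 and 446 FPKM and at 72.9, 35.9 and 324.1 FPKM. Edn1, endothelin 1, stood at 58.8, 129.2 and 118.8 FPKM and at 36.5, 3.17 and 102.8 FPKM. In all 3, knockdown library 3 lay above control library 1 and below control libraries 2 and 3. The growth-restraining matricellular protein Ccn5, the lipolysis inhibitor G0s2 and the receptor ligand Alkal1 had the same order, with log2 changes of -2.02, -1.999 and -2.10.

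Higher genes with overlap differed more in which library set them apart. Gdf15, a stress cytokine, stood at 139.9, 61.6 and 78.4 FPKM and at 148.5, 754.9 and 120.5 FPKM, its size resting on knockdown library 2. Tfpi2, a matrix protease inhibitor, stood at 1.39, 8.06 and 8.06 FPKM and at 57.97, 0.88 and 39.6 FPKM, with knockdown library 2 the lowest of all 6. Nox1, a superoxide-producing oxidase of smooth muscle, stood at 1.08, 1.24 and 3.23 FPKM and at 15.6, 2.57 and 7.66 FPKM. Dusp2, a phosphatase of MAP kinases, had its overlap in knockdown library 2 too, at 0.528 FPKM, against 25.3 and 10.3 FPKM in the others. Creg1 overlapped through knockdown library 3. Romo1 was listed at 0 in all controls and in knockdown library 1. It rests on 1 and 7 recovered fragments in the others, so no fold is given.

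**Figure D4:**
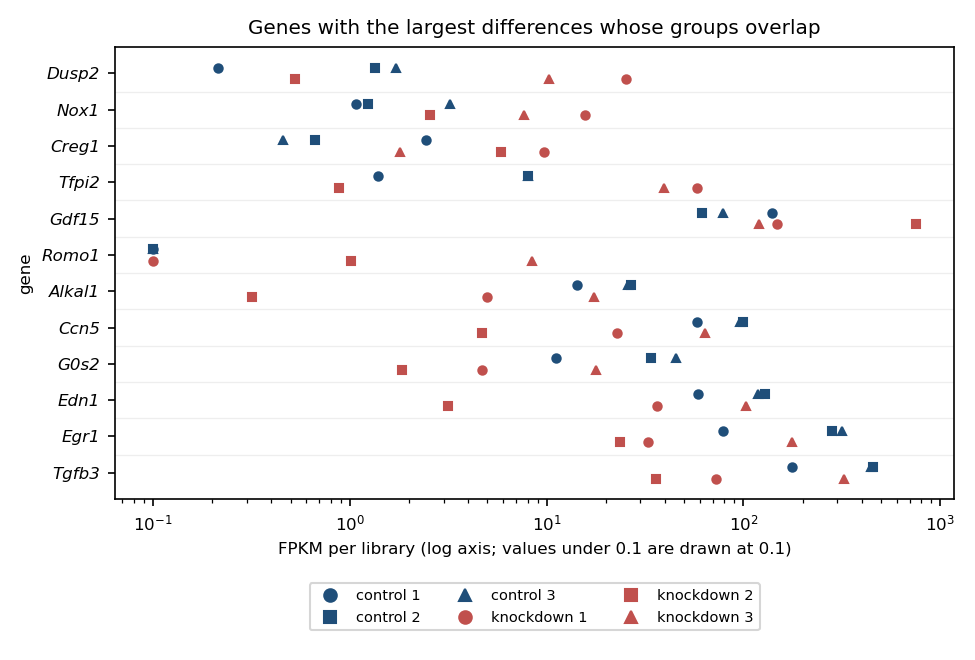
FPKM in each library (log axis) for the genes with the largest differences among those whose control and knockdown values overlap; blue symbols are controls, red symbols knockdown libraries, and the symbol shape gives the library number. For Alkal1, Ccn5, G0s2, Edn1, Egr1 and Tgfb3 knockdown library 3 (red triangle) lies between control library 1 (blue circle) and the other controls.

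Among all large differences with overlap, nearly every gene parted when a single library was set aside. These genes were picked for a large change and any 1 of 6 libraries could be dropped, so parting was likely beforehand. Of the 101 lower genes, 100 had groups that came apart once 1 library was left out. That was so for 73 without control library 1 and for 62 without knockdown library 3, against 3 to 9 for each of the other 4 libraries. Over all 11725 genes, 1388 lower ones were apart with all 6 libraries, 2287 without control library 1 and 2484 without knockdown library 3. Leaving out each of the others gave 1563 to 2360. Of the 47 higher genes 42 came apart in this way, 17 of them without knockdown library 3, 13 without control library 1 and 11 without knockdown library 2. Over all genes, 1074 higher ones were apart with all 6 libraries, and 2139, 1893 and 2022 without these libraries in the same order. Knockdown library 3 was also the nearest to the controls among supported genes, for 190 of the 298 lower and 77 of the 148 higher ones.

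Support differed by level, more on the lower side. Supported lower genes made up 0.896% of the quintile of genes with the lowest mean (1.001 to 3.754 FPKM) and 4.43% of that with the highest (over 30.4 FPKM), while supported higher genes made up 0.469% and 1.19%. The median log2 change was -0.11 in the highest quintile and between -0.04 and 0.02 in the other 4. The 100 most abundant genes took 29.1%, 28.1% and 27.9% of the protein-coding fragments in the controls and 21.8%, 21.3% and 28.3% after knockdown (exact two-sided permutation p = 0.3). By gene length, as recovered from the values, the median log2 change was -0.09 in the shortest quintile (51 to 1313 nt). It was 0.03 in the longest (3983 to 24120 nt), while supported lower shares lay between 2.22% and 2.81%. The supported higher share was 0.895% in the shortest quintile and at most 1.92%, in the fourth, and the share of higher genes without overlap went from 6.10% in the shortest to 11.9% in the longest. Of 7556 genes with a listed length, 4837 were recovered at that length, so some genes may stand in too short a quintile. The filter itself let 225 genes in through the knockdown libraries alone and 187 through the controls alone, and these gave 6 of the supported higher and 5 of the supported lower genes. At the threshold, Pi15 and Cd40 lay just inside with means of 1.0009 and 1.0015 FPKM, and Irgc and Gcgr just outside with 0.99927 and 0.99916 FPKM.

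**Figure D5:**
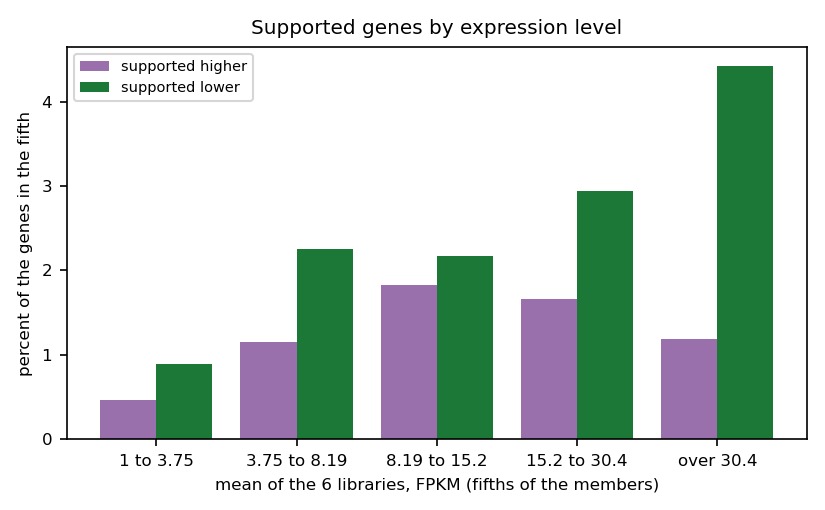
Percent of genes that are supported higher (purple) or lower (green) after Nat10 knockdown, in quintiles of the mean FPKM over the 6 libraries. The lower share goes from 0.896% to 4.43% between the lowest and the highest quintile, and the higher share is at most 1.83%.

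The other assays of the series give a readout on the same genes that the choice of genes did not use. An ac4C peak in all 3 control peak lists was present for 4.62% of the 11725 genes, for 32 of 298 supported lower genes (10.7%) and for 5 of 148 supported higher genes (3.38%). Peaks are called more often in abundant RNAs, so the highest quintile was read alone: there the shares were 11.9% of all genes, 20 of 104 supported lower (19.2%) and 0 of 28 supported higher. Read the other way, 7.14% of the peak-bearing genes in that quintile were supported lower, against 4.07% of those without. Acta2, Nexn, Lmod1, Mylk, Itga8, Actn1, Col3a1, Col11a1, Ccdc80 and Plod2 were among the 32. Peaks of NAT10-bound RNA in all 3 lists were present for 3.08% of all genes, 4.70% of supported lower and 3.38% of supported higher genes, and in the highest quintile for 9.59%, 10.6% and 14.3%. Itgb1, Itga11, Col4a2, Col5a1, Tpm2 and Hsph1 had them. The quintiles use the mean of all 6 libraries while these ac4C peaks come from control libraries, where at the same mean supported lower genes have the higher level and supported higher genes the lower one. That tilts the ac4C shares within the quintile toward the lower genes, and its part in the difference was not tested.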

How the data were processed

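The 3 control and 3 knockdown input libraries hold RNA that was not immunoprecipitated. The labels' protocols name a stranded mRNA kit for RNA-seq and another kit for the ac4C libraries, and do not say which made the input libraries, so reads of overlapping or antisense genes may not be told apart. The authors deposited FPKM per gene, 1 column per library, with replicates not pooled. The tools listed, per the submitters' processing notes, are HOMER 4.10.4, featureCounts 1.6.3, DESeq2, HISAT2 2.1.0 and cutadapt 2.5. The same notes list GRCh38, GRCm38 and rn6 as builds, with no role given for any. The deposited peak lists, 1 per library, hold the authors' p-value per ac4C peak and a p-value and log2 enrichment per NAT10-bound peak. They were used here only for whether a gene has a peak.

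Genes of any biotype with a mean of at least 1 FPKM (13450) were fitted as log2(FPKM + 1) with limma 3.58.1 in R 4.3.3 (trend, two-sided, 2 groups of 3, no covariate), with Benjamini-Hochberg adjustment over all 13450. The protein-coding genes among them are described. FPKM are not counts, but for 21401 of 21401 genes above 0 a length from 20 to 130000 nt made all 6 values whole fragments. Of 500 altered genes 0 gave this. The smallest length that fitted was kept. Of 7556 genes with a length in the first control ac4C list, 4837 were given that same length. Recovered lengths and fragments of single genes can therefore be too low by a whole factor. The recovered fragments gave the library depths and a voom fit as an alternative. At low levels a fold on the log2(FPKM + 1) scale understates the change. The fit was tested on simulated data.

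The members, gene lists and alternatives were chosen with earlier results of these data known. Named were Nat10, the 10 supported genes with the largest difference in each direction, and the 6 in each direction among genes with overlap. In each list described, up to 3 supported genes per direction were named, or else the 2 with the smallest p, and the overlapping one with the largest difference. A few genes and 1 list that the rule would name are not reported here. Further list members were named after their values were seen. Symbols that are clone or locus identifiers were counted but not named, among them the largest supported higher gene. The alternatives were another pseudocount, filter and scaling, library weights, voom, a replicate block and leaving out libraries. Other libraries of the series entered only through their peak lists, and the rest were not analysed here.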

Additional observations from a re-analysis of the deposited data

How the results depend on the processing

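Scaling to the protein-coding total shifted most counts. It left 527 lower genes at an unadjusted limma p under 0.05, 174 supported lower genes and 884 lower genes without overlap, and 20 of 50 list medians changed sign, none of them above 0.145 in size. Library quality weights, highest for control libraries 2 and 3, called 302 genes at an adjusted limma p under 0.05, of which 270 were supported. They gave 1356 higher and 1749 lower genes at an unadjusted limma p under 0.05. The other alternatives called 0, except that leaving out 1 library gave 0 to 1. With 1 library left out, the unadjusted counts ran from 211 to 959 higher and from 415 to 1319 lower, lowest without control libraries 3 and 2 and highest without knockdown library 3. Requiring a log2 change of at least 1 as well left 28 supported higher and 119 supported lower genes. Counts without overlap, recomputed as an alternative chosen after seeing the data, ran from 1279 to 2139 higher and from 1563 to 2484 lower with 1 library left out, and were 2902 and 3325 without control library 1 and knockdown library 2, since fewer values overlap less often. The cause of the other shifts was not tested.

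With a replicate block 320 higher and 603 lower genes had an unadjusted limma p under 0.05 and 0 passed adjustment. The deviations of same-numbered libraries correlated at -0.29, -0.42 and 0.27. With so few libraries per group, these correlations cannot show whether equal numbers pair the libraries. Whether same-numbered libraries share an animal or a culture is not stated in the labels and was not tested.

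Of 2820 pairs of a named gene and an alternative, 11 had the other sign. With 1 library left out, log2 changes ran from -1.34 to 0.0584 for Kif26b, -0.0624 to 0.639 for Ppp2ca, -0.138 to 1.95 for Rplp2, -0.144 to 1.47 for Hnrnpab, -0.764 to 0.139 for Mt-cyb, -0.934 to 0.506 for Mt-co2 and -0.00284 to 1.63 for Rsad2. Without control library 1 and knockdown library 2 they were -0.238 for Rplp2, 0.242 for Mt-cyb and 0.442 for Mt-co2, which was 0.0609 with quality weights. Low fragment numbers limit single genes in the lowest quintile of level.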
